A study of Mus musculus with 8 samples.

Results

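The levels of 10 genes of intestinal antimicrobial defence were followed in 8 C3H/Hej mice, in the lymphoid tissue of the gut wall that forms Peyer's patches. The members are Reg3b, Reg3g, Retnlb, Lyz1, Mmp7, Ang4, Itln1, Pla2g2a, Saa1 and Lcn2. They were chosen by name as Paneth cell, antimicrobial and acute phase genes, and every probe set annotated to exactly 1 of them was taken, 15 of the 45101 on the array. The array names 18194 genes through such probe sets. Male and female mice aged 6 weeks were gavaged for 28 days with normal saline or with OVA, the main protein of egg white and a common model allergen, at a daily dose of 40 mg/kg. OVA was given to 4 males, numbered 1, 5, 8 and 13, and to 2 females, numbered 2 and 12. Saline was given to 1 female, numbered 7, and to 1 male, numbered 8. The spread among saline mice of a sex was therefore not measured, and precision is limited by how few arrays there are. The C3H/Hej strain, shared by all groups, is known for a mutant Tlr4, the sensor of lipopolysaccharide.

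Paneth cells sit at the base of the small intestinal crypts and release granules of antimicrobial proteins into the lumen. Enterocytes and goblet cells add secreted lectins and resistin-like proteins, and the acute phase proteins are made by liver and by inflamed epithelium. In the gut the RegIII lectins are known to respond to microbes through MyD88 signalling and to interleukin-22 through STAT3. A Peyer's patch sample holds follicle together with overlying and neighbouring epithelium, so in such bulk samples fewer cells of a type and less RNA per cell cannot be told apart.

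Promoter sequences are shown for Reg3b and Reg3g, lectin genes that were both highest in male control 8 and lowest in male OVA 5, and for Saa1, the member with the widest range. They come from RefSeq on build GRCm38.p6, from 250 bases before to 50 after an annotated start, and 8 of the 10 members had an entry. Reg3b lies at chr6:78370885-78373466 and Reg3g at chr6:78466269-78468874, 92.8 kb apart, and Saa1 lies at chr7:46740497-46743181. Capitals mark matches, on either strand, to TTCNNNGAA (the STAT pattern), TTGCNNAA (a C/EBP pattern) and TATAAA (the TATA box). The windows are chr6:78370635-78370934 on the plus strand, chr6:78468825-78469124 on the minus strand and chr7:46742931-46743230 on the minus strand. The start used for Saa1 lies inside the gene span given above, and so does most of its window.
Reg3b: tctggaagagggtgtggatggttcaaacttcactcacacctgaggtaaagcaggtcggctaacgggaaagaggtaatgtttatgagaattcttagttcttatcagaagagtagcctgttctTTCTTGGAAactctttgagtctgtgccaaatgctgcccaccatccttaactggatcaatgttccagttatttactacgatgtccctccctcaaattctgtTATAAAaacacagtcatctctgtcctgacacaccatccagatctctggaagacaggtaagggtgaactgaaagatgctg
Reg3g: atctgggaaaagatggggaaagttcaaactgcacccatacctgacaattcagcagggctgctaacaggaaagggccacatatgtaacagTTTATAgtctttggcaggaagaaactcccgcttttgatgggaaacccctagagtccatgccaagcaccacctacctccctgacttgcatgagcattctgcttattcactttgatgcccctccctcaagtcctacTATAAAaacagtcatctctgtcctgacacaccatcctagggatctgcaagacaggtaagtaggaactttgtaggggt
Saa1: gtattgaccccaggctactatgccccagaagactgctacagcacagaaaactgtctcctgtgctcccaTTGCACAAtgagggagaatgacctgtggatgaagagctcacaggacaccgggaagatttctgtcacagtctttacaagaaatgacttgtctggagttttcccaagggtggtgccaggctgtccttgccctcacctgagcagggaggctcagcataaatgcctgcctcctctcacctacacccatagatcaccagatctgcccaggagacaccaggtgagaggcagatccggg
Reg3b and Reg3g both hold TATAAA, starting 29 and 27 bases before the start, with a further match 161 bases before that of Reg3g on the other strand, and share an unbroken run of 29 bases that starts 20 bases before it. Against Saa1 the longest shared run of either was 8 bases. The STAT pattern was found in the Reg3b window, 129 bases before the start, and not in that of Reg3g. The C/EBP pattern was found in the Saa1 window, inside the gene span. Of the 32851 promoter windows of the table, 8.3% held TTCNNNGAA, 10.8% TTGCNNAA and 13.6% TATAAA. These are matches of letters, not measured binding.

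Each value is the probe set intensity that the authors deposited, on a linear scale. The array medians ran from 11.6 to 12.3. A probe set was tested if its mean log2 value was above the median of all probe sets, an intensity of 11.9, and 22518 were tested. Of the 15 member probe sets, 14 passed, with at least 1 for each gene, and the Lyz1 probe set 1450822_at, at 4.67 to 7.38, did not. Levels of different probe sets cannot be set against each other. The extraction text of the labels names brain tissue of a patient. All 9 B cell markers with a probe set passed the filter, while 2 of 9 neuron and glia markers did. Of the 16 Paneth markers 8 had a probe set that names 1 gene, and 7 of these passed, 5 of them members and the other two Mptx1 and Spink4. Defa3 stayed below the filter, and the other alpha-defensins of that list had no such probe set.

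Male OVA 5 and male OVA 8 stood apart in the values of most members, and male control 8 did so in Reg3b, Reg3g, Retnlb and Saa1. In 8 of the 14 member probe sets both male OVA 5 and 8 lay below all other arrays, against 5.13% of all tested probe sets. The 8 include both Saa1 probe sets, which read only 3.63 to 6.14 on male OVA 5 and 8. The highest array exceeded the lowest by more than 1 log2 unit in 9 of the 14, against 10.8% of all tested probe sets, and the median range was 1.32 against 0.54 log2 units. This order was noticed in the data and has no test. The 3′ to 5′ signal ratio, a sign of RNA quality, was highest in male OVA 8 and male control 8 for both control genes. It was 1.58 and 1.54 for beta-actin against 1.29 to 1.43 elsewhere, and 0.96 and 1.00 for Gapdh against 0.83 to 0.90. Male OVA 5 lay within the range of the others, at 1.37 and 0.87. The part of RNA quality in the members' values was not tested. Results are given with all arrays, and selected estimates without single arrays follow for each member. Leaving out a control leaves the contrast within the other sex.

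**Figure D1:**
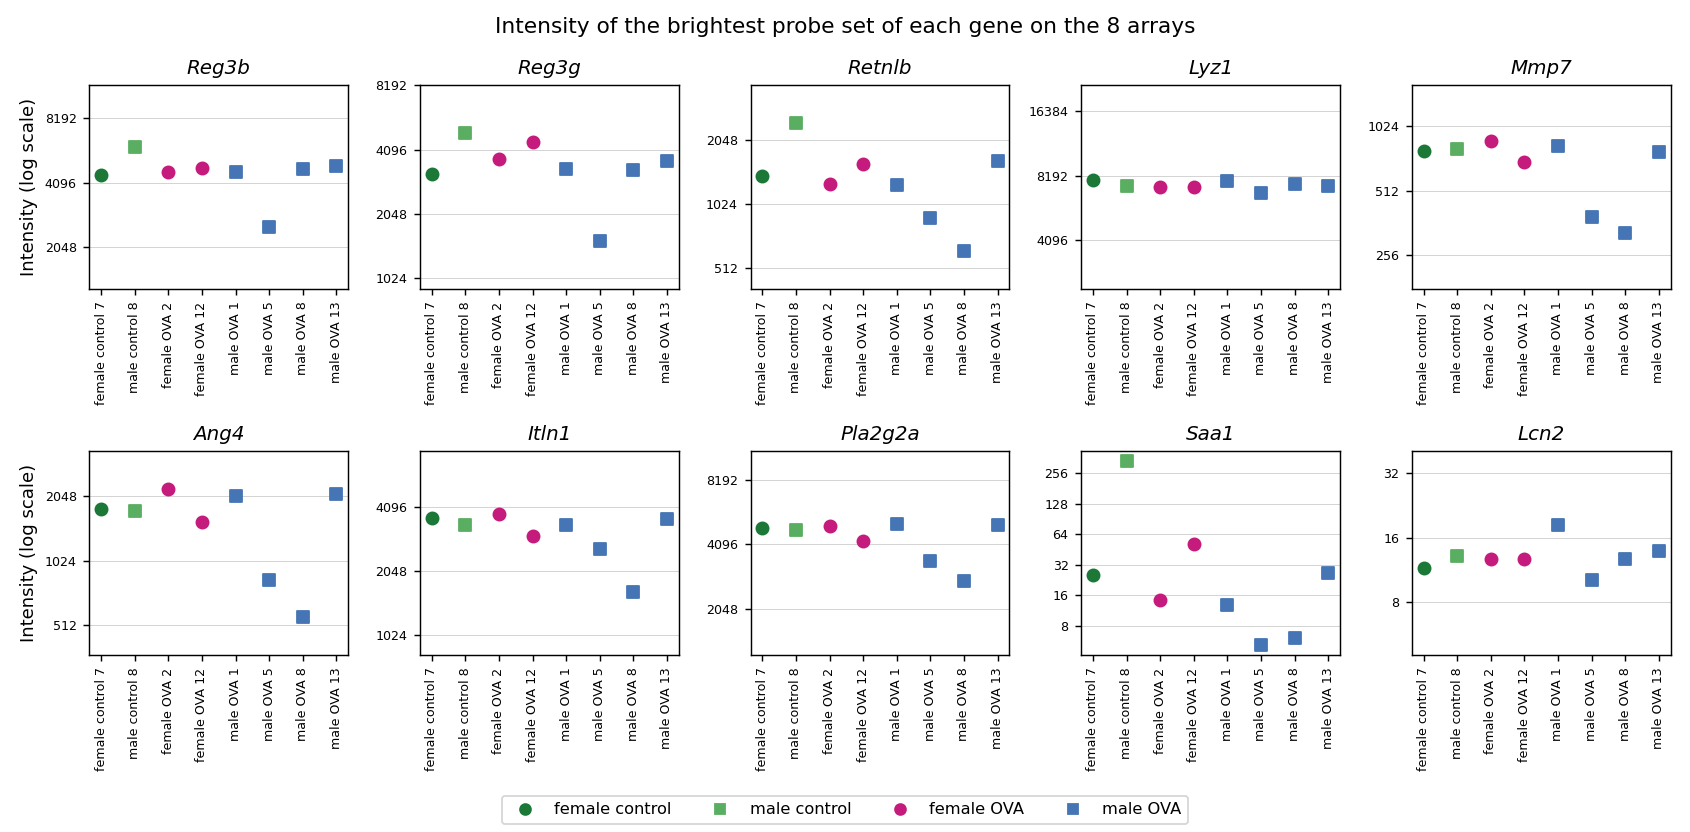
Intensity of the brightest probe set of each member (vertical axis, log scale, with a range set per gene) on each of the 8 arrays (horizontal axis); colours mark the 4 groups, circles females and squares males, and each point is 1 mouse. Ang4, Mmp7, Itln1, Pla2g2a and Retnlb are lowest in male OVA 5 and 8, Reg3b and Reg3g in male OVA 5, Lyz1 is nearly level, and Saa1 reaches 337 in male control 8.

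Among the members made in Paneth cells the widest range belonged to Ang4, a ribonuclease with activity against gut microbes, at chr14:51763892-51773590. Its probe set 1440832_at read 1791 in female control 7, 1748 in male control 8, 2212 and 1545 in female OVA 2 and 12, and 2045, 832, 559.8 and 2096 in male OVA 1, 5, 8 and 13. Its other probe set, 1438364_x_at, read 349.5 and 340.0 in the controls, 487 and 301 in the females and 452, 184, 157 and 479 in the males, in the same order of arrays. The x_at type of probe set may also match other transcripts. Male OVA 5 and 8 lay below all others, and 3 OVA arrays lay above both controls, so the groups overlapped. The mean of 1440832_at was 1769.6 ± 30.7 (SD, n = 2) after saline and 1548 ± 704 (SD, n = 6) after OVA, a log2 difference of -0.28 ± 0.49 (SE; limma adjusted p = 0.833). It was 0.045 without male control 8, -0.55 without female control 7, and -0.18 and -0.08 without male OVA 5 and 8.

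Mmp7, the matrilysin that cuts pro-alpha-defensins into active peptides (chr9:7692090-7699585), read 784 in female control 7 and 802 in male control 8. In OVA mice it read 871 and 697 in females 2 and 12, and 828, 384, 326 and 778 in males 1, 5, 8 and 13. Of the OVA arrays 4 lay below both controls and 2 above. The log2 difference was -0.32 ± 0.36 (SE; limma adjusted p = 0.735). It was -0.009 without male control 8, -0.58 without female control 7 and -0.19 without male OVA 8.

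Itln1, an intelectin that binds microbial sugars (chr1:171518123-171535325), read 3619 and 3358 in female and male control, 3803 and 2986 in female OVA 2 and 12, and 3379.6, 2585, 1633 and 3601 in male OVA 1, 5, 8 and 13. Pla2g2a, a secreted phospholipase that attacks bacterial membranes (chr4:138831857-138835189), read 4873 and 4794 in the controls, 4966 and 4267 in the females and 5079.7, 3425, 2750.2 and 5035 in the males. In both genes male OVA 8 was lowest and male OVA 5 next. RefSeq lists Pla2g2a in its C57BL/6J assembly as a transcribed pseudogene, while the mice here are of another strain. The log2 differences were -0.23 ± 0.28 (SE) for Itln1 and -0.19 ± 0.23 (SE) for Pla2g2a, and neither passed (limma adjusted p = 0.757 and 0.755). Without male control 8 they were -0.10 and -0.082, and without male OVA 8 -0.095 and -0.097.

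Lyz1, the Paneth cell lysozyme (chr10:117287795-117292868), was nearly level on the 2 probe sets that passed the filter. Probe set 1436996_x_at read 7765 and 7352 in female and male control, 7207 and 7244 in female OVA 2 and 12, and 7723, 6769, 7441 and 7347 in male OVA 1, 5, 8 and 13. Its highest array was 1.15-fold above its lowest, and the same was true of 1439426_x_at, at 5884 to 6755. Male OVA 5 was lowest in both, while male OVA 8 was not among the 3 lowest of either. The log2 difference of 1436996_x_at was -0.05 ± 0.10 (SE; limma adjusted p = 0.842), with a 95% interval of -0.27 to 0.16. Leaving out 1 array gave -0.104 to -0.008. These 2 probe sets are of the type whose probes may also match other transcripts. Lyz2, the macrophage lysozyme and a close paralog, read 3386 to 5137 on a probe set of its own and was highest in male OVA 8. Whether Lyz2 RNA entered the Lyz1 values was not tested. The third Lyz1 probe set, whose accession is the RefSeq transcript of Lyz1, did not pass the filter. It read 4.67 and 5.73 in male OVA 5 and 8 and 6.57 to 7.38 elsewhere, all below the filter intensity of 11.9. The probe sets of this gene therefore disagreed.

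The lectins Reg3b and Reg3g, which bind bacteria at the mucosal surface, were low in male OVA 5 and not in male OVA 8. Reg3b probe set 1416297_s_at read 4437 in female control 7, 6031 in male control 8, 4593 and 4811 in female OVA 2 and 12, and 4580.2, 2543, 4737 and 4928 in male OVA 1, 5, 8 and 13. Its second probe set, 1448290_at, read 3739 and 4769.5 in the controls and 2804 to 4250.3 in OVA mice, and held the value 3775 on 3 arrays. Reg3g read 3161 and 4923 in the controls, 3719.6 and 4434 in the females, and 3329, 1526, 3275 and 3612 in the males. Male control 8 was highest and male OVA 5 lowest in all 3 probe sets, whereas male OVA 8, lowest in Ang4 and Mmp7, lay within the range of the others. The mean of Reg3g was 4042 ± 1246 (SD, n = 2) after saline and 3316 ± 970.2 (SD, n = 6) after OVA. The log2 differences were -0.27 ± 0.26 (SE) for Reg3b 1416297_s_at, -0.22 ± 0.16 (SE) for 1448290_at and -0.28 ± 0.36 (SE) for Reg3g (limma adjusted p = 0.682, 0.603 and 0.764). Without male control 8, which leaves the contrast within females, the estimates were 0.08 for Reg3b 1416297_s_at, -0.005 for 1448290_at and 0.36 for Reg3g. Without female control 7 they were -0.57, -0.40 and -0.82. Without male OVA 5 Reg3b 1416297_s_at gave -0.14 and Reg3g -0.11.

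Retnlb, a resistin-like protein of goblet cells with bactericidal activity (chr16:48816856-48818892), joined features of both patterns. It read 1378 in female control 7, 2443 in male control 8, 1264 and 1569.9 in female OVA 2 and 12, and 1256, 882, 619 and 1624 in male OVA 1, 5, 8 and 13. Male control 8 was highest, as for Reg3b and Reg3g, and male OVA 8 and 5 lowest, as for Ang4, Mmp7, Itln1 and Pla2g2a. The log2 difference was -0.66 ± 0.38 (SE; limma adjusted p = 0.519), with 0.03 without male control 8 and -1.25 without female control 7.

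Saa1, an acute phase apolipoprotein that is also made by gut epithelium, had the widest range of the members. Probe set 1450788_at read 25.2 in female control 7, 337 in male control 8, 14.3 and 51.2 in female OVA 2 and 12, and 12.8, 5.22, 6.14 and 26.5 in male OVA 1, 5, 8 and 13. The highest array was 64.6-fold above the lowest. The lowest value, 5.22, is close to the 25th percentile of all values, 4.88, so background limits this ratio. Male control 8 stood alone at 337, and no other array exceeded 51.2. The second probe set, 1419075_s_at, read 17.8 and 278 in the controls and 3.63 to 51.3 in OVA mice. Its accession is a RefSeq transcript of Saa2, the near-identical neighbour 8.7 kb away, so it may read either gene. The accession of 1450788_at is a RefSeq transcript of Saa1, and whether that probe set also reads Saa2 was not tested. The probe set annotated to Saa2 alone stayed below the filter, at 8.01 to 19.4, and read 10.5 in male control 8.

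The log2 difference of Saa1 1450788_at was -2.36 ± 0.92 (SE), with an unadjusted p of 0.0308 and a limma adjusted p of 0.417, and 1419075_s_at gave -2.25 ± 1.00 (SE; adjusted p = 0.447). Within females the estimates were 0.13 and 0.36, and without female control 7, which leaves the contrast within males, -4.44 and -4.43. The OVA effect in males minus that in females was -4.57 ± 1.06 (SE) for 1450788_at, with an unadjusted p of 0.00332 and a limma adjusted p of 0.506, so it did not pass. All male arrays in that contrast are set against male control 8 alone.

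Lcn2, the siderophore-binding lipocalin of neutrophils and inflamed epithelium (chr2:32384637-32387739), was dim throughout. It read 11.5 and 13.1 in female and male control, 12.7 on each of female OVA 2, female OVA 12 and male OVA 8, and 18.3, 10.1 and 13.8 in male OVA 1, 5 and 13. The values lay around the filter intensity of 11.9, and the log2 difference was 0.06 ± 0.15 (SE; limma adjusted p = 0.882). Leaving out 1 array gave 0.006 to 0.117. Of 9 neutrophil markers with a probe set 1 passed the filter, Csf3r, and S100a8 and S100a9 read at most 22.2 and 28.5 on any array.

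**Figure D2:**
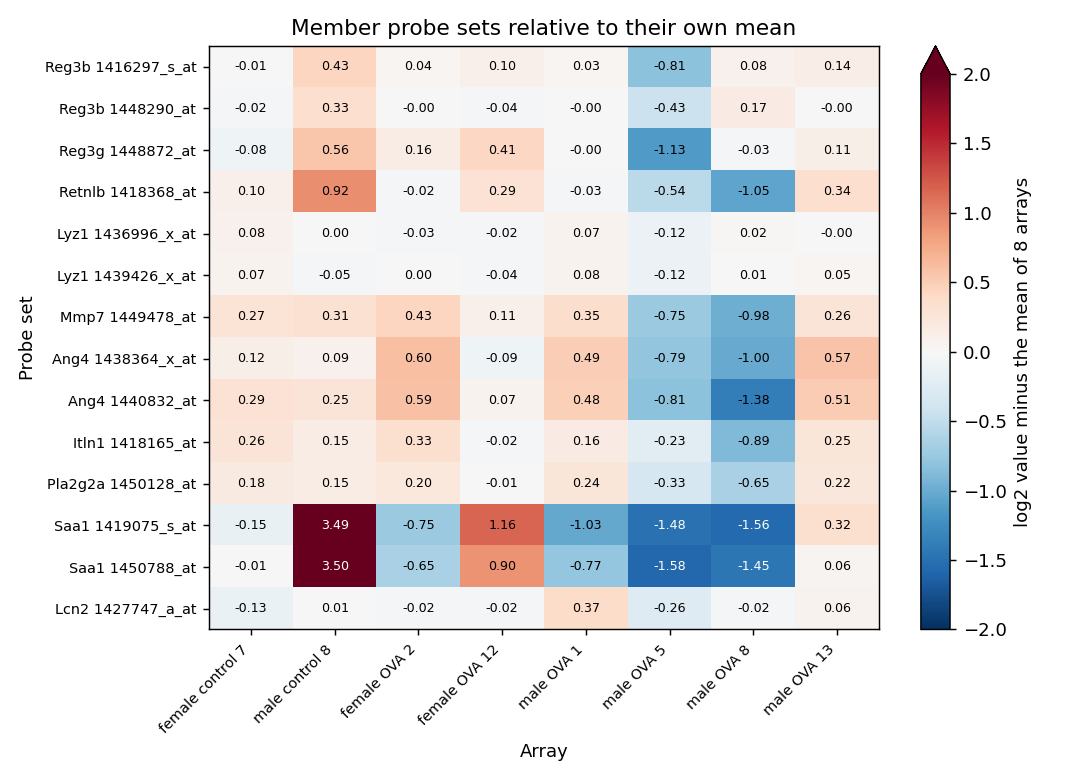
Log2 value of each of the 14 tested member probe sets (rows) on each array (columns) minus its mean over the 8 arrays; red is above and blue below the mean, and the colour scale ends at 2. The columns of male OVA 5 and 8 are blue for most members, that of male OVA 8 is pale for Reg3b and Reg3g, and Saa1 stands at 3.50 in male control 8.

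Set together for OVA against control, 13 of the 14 member probe sets had an estimate below 0, Lcn2 being the exception, against 45.5% of all tested probe sets. Their median difference was -0.25 against 0.02 over all tested probe sets. None of the 14 passed limma's test, where 0 of 22518 (0%) passed (smallest adjusted p = 0.21) and 2524 (11.2%) had an unadjusted p under 0.05. Among the members 1 probe set, Saa1 1450788_at, was lower at an unadjusted p under 0.05, where 4.33% of all tested probe sets were, and none was higher, where 6.88% were. In no member did all 6 OVA arrays lie below both controls (5.01% of tested probe sets) or above both (8.36%). Within females, the contrast left when male control 8 is dropped, 6 of 14 estimates were below 0, and within males 12 of 14. The count was 10 of 14 without male OVA 5 and 8, with a median of -0.03, and 8 of 14, with a median of -0.04, when the B cell marker mean was a covariate.

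**Figure D3:**
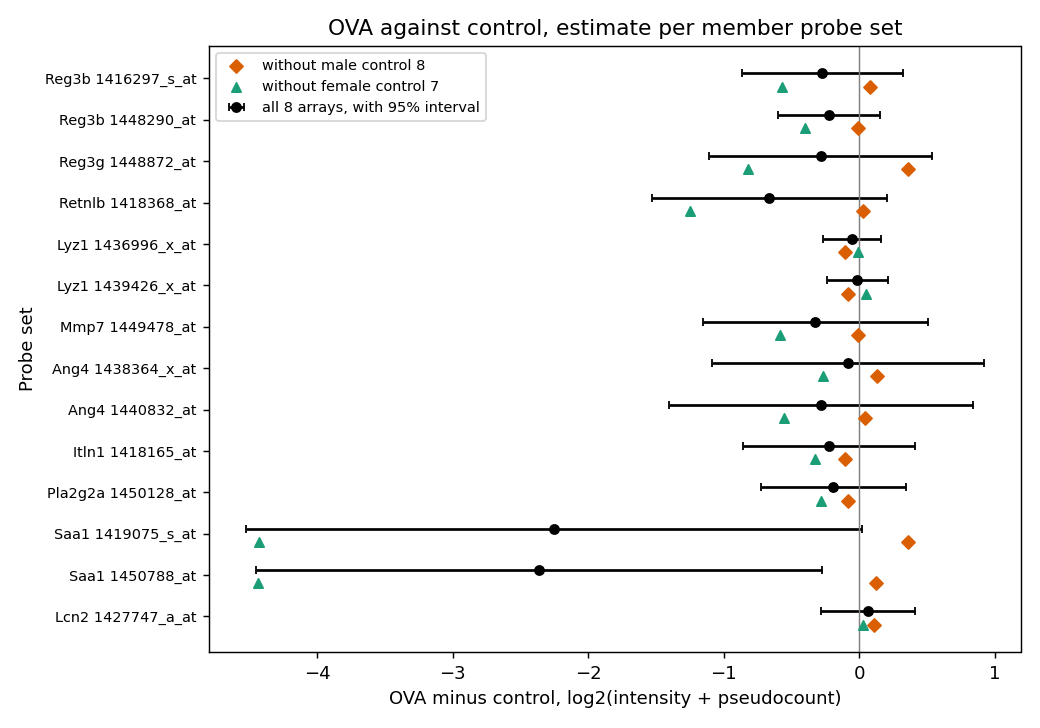
Estimated OVA minus control difference on the log2 scale (horizontal axis) for each tested member probe set (vertical axis), with black points and 95% intervals from all 8 arrays, diamonds from the fit without male control 8 and triangles without female control 7. All intervals but that of Saa1 1450788_at include 0, and the 2 Saa1 estimates move from -2.36 and -2.25 to 0.13 and 0.36 without male control 8.

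The sexes were compared next, over 3 females and 5 males. None of the 14 probe sets passed for female against male, where 12 of 22518 (0.0533%) did, and 4 of the 14 estimates were below 0 against 54.7% of all tested probe sets. At an unadjusted p under 0.05 no member differed, where 5.41% of tested probe sets did, 1.44% higher and 3.97% lower in females. The largest estimate was 0.47 ± 0.44 (SE) for Ang4 1440832_at (limma adjusted p = 0.922), whose mean was 1849 ± 337 (SD, n = 3) in females and 1456 ± 713 (SD, n = 5) in males. When the OVA effect was compared between males and females none of the 14 passed, where 0 of 22518 (0%) did. Both Saa1 probe sets were lower in males at an unadjusted p under 0.05, where 8.2% of tested probe sets differed, 5.48% lower and 2.72% higher. All members but the 2 tested Lyz1 probe sets had an estimate below 0, against 56.4% of tested probe sets.

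Male OVA 5 and 8 were also the lowest arrays in Defa31, Defa39 and Mptx1, which the members' rule did not use. Of 12 genes on a list of other Paneth cell genes, not all of them granule products, 10 were tested. Of these, 9 were below 0 and 1 above, where 45.5% of all tested probe sets were below 0. The median of the 10 was -0.27, and none passed. Defa31, an alpha-defensin, read 10983 and 10859.7 in female and male control, 7492 and 8635 in female OVA 2 and 12, and 5482, 66.2, 982 and 9515 in male OVA 1, 5, 8 and 13. Its probe set is of the type that may match other transcripts of this multigene family. Defa39, another alpha-defensin with a probe set of that type, read 5171 to 6142 in controls and 3399 to 5581 in OVA mice (-0.26 ± 0.19, SE; limma adjusted p = 0.6). Mptx1, a mucosal pentraxin, read 410.0 and 646 in the controls, 394 and 497 in the females, and 267, 86.0, 101 and 599 in the males (-0.88 ± 0.70, SE; limma adjusted p = 0.626). Pnliprp2 of this list is also made by exocrine pancreas, whose 6 measured markers summed to 8245 in male OVA 13 and to at most 442 in either control.

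Ileal markers were low on the same arrays. Fabp6, the ileal bile acid binding protein, read 2974 and 3297 in female and male control, 2189 and 2828 in female OVA 2 and 12, and 1474, 21.2, 21.7 and 3163 in male OVA 1, 5, 8 and 13. Fgf15, the enterokine that ileal bile acids induce, read 4.78 and 4.63 in male OVA 5 and 8 and 10.8 to 63.5 elsewhere. Of the 4 ileal markers on the list 3 were tested and all 3 lay below 0, against 45.5% of all tested probe sets. The summed intensity of the 3 was 5771 to 6235 in controls and 1039 to 6034 in OVA mice. The fourth, Slc10a2, stayed below the filter, and none was at 0. Of 4 proximal markers 3 were tested, 2 above and 1 below 0. Slc40a1, the iron exporter, read 691 and 299.6 in male OVA 5 and 8, 499.98 in male OVA 13 and 62.8 to 170.2 elsewhere. Cybrd1 read 62.8 and 46.3 in male OVA 5 and 8, 65.8 in male OVA 13 and 24.4 to 35.0 elsewhere. Fabp1 was highest in male OVA 5 at 6330, while male OVA 8, at 4906, lay within the range of the other arrays. The part of the ileal and proximal markers in the values of the members was not tested.

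**Figure D4:**
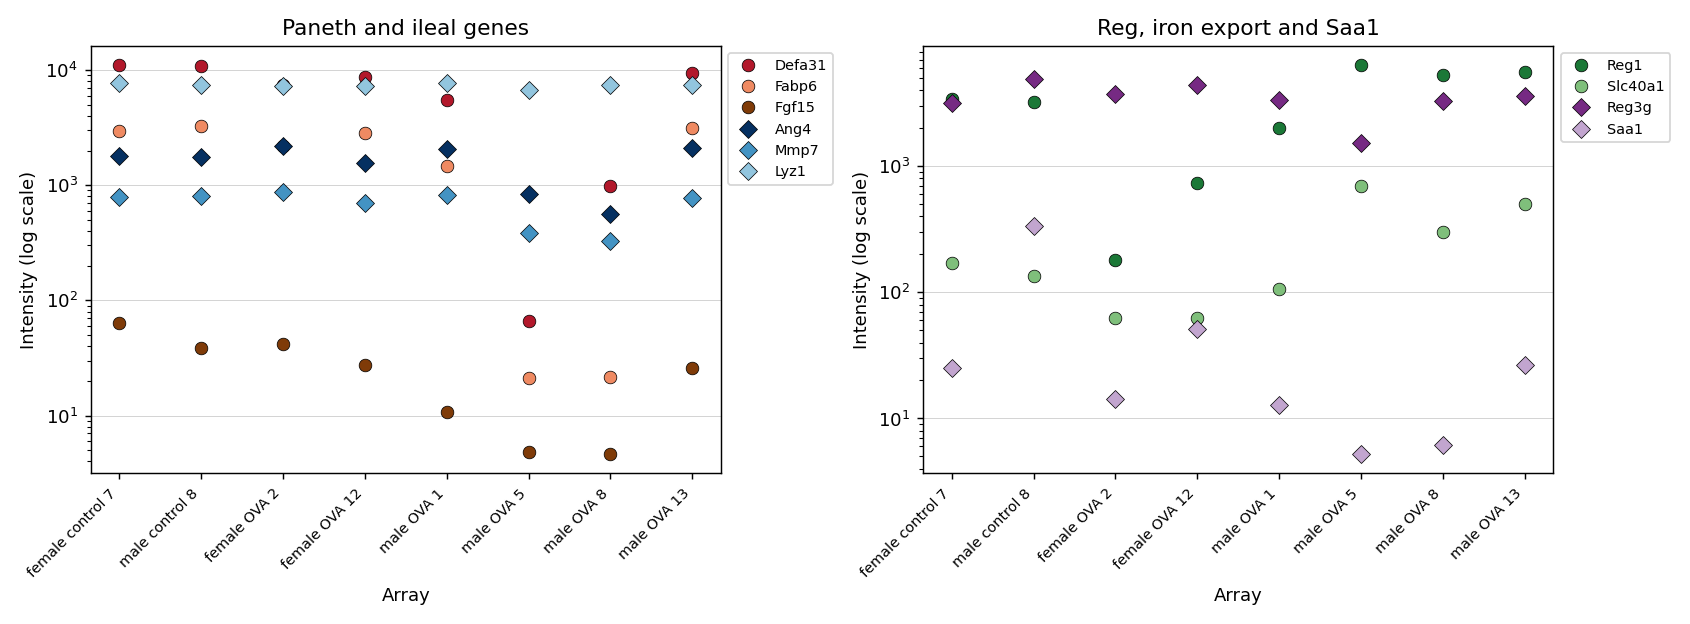
Intensity (vertical axis, log scale) on each array (horizontal axis), with diamonds for members and circles for other genes; heights of different genes are not comparable. On the left Fabp6 reads 21.2 and 21.7 and Defa31 66.2 and 982 in male OVA 5 and 8. Ang4 and Mmp7 are also lowest there, and the brightest Lyz1 probe set, 1436996_x_at, is no lower than 6769. On the right Reg3g is lowest and Reg1 highest in male OVA 5.

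Markers of other compartments also differed between arrays. Among all tested probe sets 45.5% had an OVA estimate below 0. The 9 B cell markers were above 0 in 9 of 9, and their summed intensity was 3019 to 3293 in controls and 3053 to 6397.5 in OVA mice. It was high in male OVA 8 (6397.5) and in female OVA 12 (6275), and was 3655.5 in male OVA 5. The Mmp7, Ang4, Itln1 and Pla2g2a probe sets were lowest in male OVA 8, then in male OVA 5, then in female OVA 12. The 6 smooth muscle markers were below 0 in 6 of 6, with sums of 3648 to 4125 in controls and of 2168 in male OVA 5 and 2719 in male OVA 8. The remaining OVA arrays summed to between 3346 and 4063. The 10 goblet markers, Retnlb among them, were below 0 in 10 of 10, with sums of 24527 to 28559 in controls and 16278 to 26263 in OVA mice. Spink4 and Ccl6 of that list are also on the list of other Paneth cell genes. The 10 epithelial barrier markers were also below 0 in 10 of 10, with 22172 to 23346 and 15010.4 to 22867, and the 9 enterocyte markers in 9 of 9, with 35647 to 40289 and 28635 to 39972. In each of these epithelial lists except the enterocytes male OVA 8 had the lowest sum. Adipoq, an adipocyte hormone, read 185 in male OVA 5 and at most 3.58 on the other arrays. None of these lists held a gene that passed, no marker was at 0, and their part in the members' values was not tested.

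Signals and regulators known to act on the members were counted in the same way, against 45.5% of all tested probe sets below 0. Of 22 genes of the interleukin-22, interleukin-17 and STAT3 axis 13 were tested, 7 above and 6 below 0, with a median of 0.02. Socs3, a feedback inhibitor of STAT3, was at 0.22 ± 0.13 (SE) and Stat3 at -0.17 ± 0.12 (SE; limma adjusted p = 0.53 and 0.576). Il17a, Il23a and Il6 stayed below the filter. Il18, an epithelial cytokine, was highest in male OVA 5 at 919.9. Of 22 microbial recognition genes 15 were tested, 7 above and 8 below 0. Tlr3, the sensor of double-stranded RNA, was at -0.43 ± 0.16 (SE) and its adaptor Ticam1 at -0.32 ± 0.13 (SE; limma adjusted p = 0.412 and 0.425). At an unadjusted limma p under 0.05 these 2 were lower and 2 were higher, Ly96 at 0.49 and Tlr6 at 0.29. Among all tested probe sets 4.33% were lower and 6.88% higher.

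Of 20 genes of Paneth cell fate and survival 18 were tested, 4 above and 14 below 0, with a median of -0.10. Among all tested probe sets 45.5% were below 0. Hnf4a, a transcription factor of intestinal epithelium, was at -0.47 ± 0.19 (SE) and Fzd5, the Wnt receptor needed for Paneth cell maturation, at -0.42 ± 0.20 (SE; limma adjusted p = 0.419 and 0.46). Of 27 other lectins and antimicrobial proteins 18 were tested, 7 above and 11 below 0. Lypd8, which keeps flagellated bacteria off the colonic epithelium, read 3652 and 3886 in the controls and 2647 to 3461 in OVA mice (-0.30 ± 0.12, SE; limma adjusted p = 0.428), and Pla2g5, another secreted phospholipase, was at 0.28 ± 0.17 (SE; limma adjusted p = 0.531). Reg1, the pancreatic and gut member of the Reg family, ran in another order than Reg3g, at 3404 and 3224 in the controls, 181 and 733 in female OVA 2 and 12, and 2017, 6297, 5256 and 5559.9 in male OVA 1, 5, 8 and 13. Of 20 acute phase and neutrophil-linked genes 6 were tested, 3 above and 3 below 0, among them Lrg1, a leucine-rich acute phase glycoprotein, at 0.66 ± 0.18 (SE; limma adjusted p = 0.375) and Lbp, the lipopolysaccharide-binding protein, at -0.30 ± 0.16 (SE; limma adjusted p = 0.505). No gene of these lists passed.

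The genes whose profiles lay nearest to each member were found by the root mean square difference of log2 values, each centred on its own mean over the 8 arrays, among 11987 other genes. Guca2a, which encodes the hormone guanylin, was nearest to Mmp7 (0.09 log2 units) and to Ang4 (0.16), with Gp1bb next for both, and Ang4 ranked 5th for Mmp7. Guca2a, which is also on the ileal list and on that of other Paneth cell genes, read 1411 and 1013 in male OVA 5 and 8 and 2709 to 3065 elsewhere. Xpnpep1, an aminopeptidase, was nearest to Itln1 (0.10) and to Pla2g2a (0.06), Pla2g2a was second for Itln1, and Tax1bp3 was second for Pla2g2a. Casp4, an inflammatory caspase that senses intracellular lipopolysaccharide, was nearest to Reg3g (0.17) and Reg3b was second. For Reg3b the nearest were Crybg1 (0.14) and Ptk6 (0.16), and Reg3g ranked 5th. Adamdec1 and Prodh were nearest to Retnlb (0.13 and 0.14). Saa1 had no close match, with 1810065E05Rik at 0.59 and Suox at 0.85, and the nearest to the level profiles of Lyz1 (Gcc1 and Cntfr) and Lcn2 (D330022H12Rik and Nhsl2) lay within 0.08 log2 units.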

How the data were processed

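Total RNA from Peyer's patches was hybridised to Affymetrix mouse arrays with 1 label. The authors deposited 1 intensity per probe set on a linear scale, from 1.85 to 14749.3. MAS5 is named in the submitters' processing notes; the scaling target and version were not stated in the labels used. Of the probe sets 51.5% held equal values on 2 or more arrays, so a further step may have been applied. Samples were grouped by the titles. The members and lists were chosen with earlier results of these data known.

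Values were taken to log2(intensity + 4.88), the 25th percentile of all values, so differences of dim probe sets such as Saa1 and Lcn2 are understated. The 64 control probe sets were left out. Testing used limma 3.58.1 (lmFit, then eBayes) under R 4.3.3, two-sided, with Benjamini-Hochberg adjustment over all 22518 at a threshold of 0.05. An additive model of treatment and sex (5 residual degrees of freedom) gave both of those contrasts. A model of 4 group means (4 residual degrees of freedom) gave the contrast of OVA effects between sexes, which takes the spread of the single saline mice from the OVA mice. The fit was run on simulated data whose noise was independent between probe sets. That run held no differences shared by many probe sets of an array, so it does not bear on those seen here. Nothing says that the mice were housed or handled apart, so p-values measure the spread between these samples.

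Every member probe set was named, then the 2 genes of smallest p in each pathway list and the 2 nearest profiles of each member. A gene in a list was represented by its brightest probe set naming it alone. Symbols came from the platform annotation, and all 10 members were in the RefSeq table of GRCm38.p6. The Fabp6, Defa31, Fgf15, Slc40a1, Fabp1, Cybrd1, Reg1, Reg3a, Reg3d, Il18, Adipoq, Lyz2, Ly96 and Tlr6 values were chosen after they were seen. Alternatives were another pseudocount, scaling, filter, variance model, array weights, covariates, each sex alone and leaving out each array; leaving out male OVA 5 and 8 together was added after the data were seen. Tables and plots were made with matplotlib 3.10.9, pandas 2.3.3, SciPy 1.17.1 and NumPy 2.4.6 under Python 3.11.15.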

Additional observations from a re-analysis of the deposited data

Results flagged for a closer look

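Within the OVA mice, male OVA 5 lay far below the others in the RegIII lectins. For Reg3b 1416297_s_at the gap from male OVA 5 to the next array was 0.889 of the whole log2 range of the 6 OVA arrays, and 0.889 of that of the 4 male OVA arrays as well. For Reg3b 1448290_at the share was 0.652 of the 6 OVA arrays. For Reg3g it was 0.716 of the 6 OVA arrays and 0.886 of the 4 male ones. Dixon's critical values are exceeded by chance in about 1 of 20 groups. Of 28 groups examined 5 exceeded them, and the 5 share 1 array and 2 genes, Reg3b and Reg3g. Adipoq and Il18 were also highest in male OVA 5, at 185 and 919.9, and their part in the Reg3b and Reg3g values was not tested.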

How the results depend on the processing

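OVA against control gave 0 called probe sets under all 21 alternatives, and the comparison of OVA effects between males and females gave 0 wherever it was run. Female against male gave 12, 4 with the filter at the 75th percentile and 9 to 13 when 1 array was left out. Member estimates below 0 for OVA numbered 13 of 14, 8 with the B cell covariate, 6 in females alone and 6 to 13 when 1 array was left out. Of 291 member values for OVA 257 kept their sign, 34 reversed and none passed (smallest limma adjusted p = 0.363); of 235 for sex 206 kept it and 29 reversed (0.602). The causes were not tested.

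For OVA, Lyz1 1436996_x_at and 1439426_x_at reversed to 0.026 and 0.002 with quantile normalization, and 1439426_x_at to 0.001 with array weights, 0.048 in males alone and 0.01 without male OVA 5 and 8. Ang4 1438364_x_at and 1440832_at reversed to 0.19 and 0.013 with array weights, 0.41 and 0.29 with the B cell covariate, 0.13 and 0.045 in females alone, and 0.29 and 0.14 without male OVA 5 and 8. With the B cell covariate Mmp7 gave 0.022, Itln1 0.17 and Pla2g2a 0.077. In females alone Reg3b 1416297_s_at gave 0.083, Reg3g 0.36, Retnlb 0.032 and Saa1 0.36 (1419075_s_at) and 0.13 (1450788_at). Leaving out 1 array gave -0.57 to 0.083 for Reg3b 1416297_s_at, -0.82 to 0.36 for Reg3g, -1.25 to 0.032 for Retnlb, -0.086 to 0.048 for Lyz1 1439426_x_at, -0.27 to 0.13 and -0.55 to 0.045 for Ang4, and -4.43 to 0.36 and -4.44 to 0.13 for Saa1. It gave -0.58 to -0.009 for Mmp7, -0.33 to -0.095 for Itln1 and -0.28 to -0.082 for Pla2g2a, with no change of sign.

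For female against male, Saa1 1419075_s_at reversed to 0.019 with a pseudocount of 1 and 0.016 with array weights. Array weights gave 0.016 for Reg3b 1448290_at and -0.027 and -0.011 for Lyz1. OVA arrays alone gave 0.046 for Reg3b 1448290_at, -0.017 and -0.02 for Lyz1, and 1.15 and 1.06 for Saa1. Leaving out 1 array gave -0.14 to 0.21 and -0.16 to 0.046 for Reg3b, -0.008 to 0.54 for Reg3g, -0.13 to 0.45 for Retnlb, -0.017 to 0.03 and -0.02 to 0.045 for Lyz1, and -1.28 to 1.15 and -1.18 to 1.06 for Saa1.

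No paired analysis was possible because controls and OVA mice share a single replicate number, 8, in the males. With 1 control of each sex, leaving one out removes that sex from the contrast. In most arrays the values of Lcn2 and Saa1 lie near or below the median of all probe sets. There signal over background limits them. Both Saa1 probe sets read 3.63 to 6.14 in male OVA 5 and 8, below that median.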
